A study of Mus musculus with 24 samples.

Results

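Metaphase II (MII) eggs that lack Cnot6l were compared with wild-type (WT) MII eggs, with 2 libraries in each group. FPKM usually stands for fragments per kilobase of transcript, scaled to the mapped fragments, but the scaling used for these values is not stated. The genes described are those with a mean of at least 1 FPKM in either group, which were 7713 of the 23235 genes listed. Of these, 4965 reached 1 FPKM in both groups, 2664 only in Cnot6l-/- and 84 only in WT. Genes just inside the threshold, such as Abl1, had 1.0 FPKM in the higher group, and genes just outside, such as Eif2ak3, had 0.995 FPKM. A gene that passed only through 1 group had to differ, so counts are led by the 10884 genes that reached 1 FPKM in any of 12 groups of the series, or by genes chosen on their level before maturation.

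All mice were C57BL/6 of postnatal day 21. The series holds WT, Cnot6l-/- and a group labelled Btg4-/- at the germinal vesicle stage (GV, collected 48 h after PMSG), in metaphase I (MI, 8 h of culture), at MII (16 h of culture) and as zygotes (24 h after hCG), with 2 libraries a group and 24 in all. Each group is named by its knockout or as WT, and the labels name no further allele or agent. The number of oocytes in a library is given as 100 in the extraction protocol and as 2 in the description of the series. Nothing in the labels says that the libraries of a group came from separate animals. The limma p-values measure the spread between libraries of a group, pooled over the 12 groups, which may be technical.

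The CCR4-NOT complex shortens the poly(A) tails of mRNAs, and loss of the tail is the usual first step of mRNA decay. CNOT6L is one of its catalytic subunits, and BTG4 is an adaptor that links the complex to translated mRNAs in the maturing oocyte. The fully grown mouse oocyte is transcriptionally silent and holds a large store of maternal mRNA, much of which is cleared between the GV stage and the zygote. The series title speaks of total RNA, and the labels name Smart-Seq2, a protocol that usually primes reverse transcription on the poly(A) tail, so that loss of the tail and decay of the transcript could both lower a value and cannot be told apart here.

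The Cnot6l transcript itself (mm9, chromosome 5, 96505816 to 96591009, minus strand) was at 23.6 and 20.8 FPKM in the 2 WT MII libraries and at 7.26 and 3.40 FPKM in the Cnot6l-/- libraries. The groups did not overlap, and both knockout libraries still held a value above 0. The difference was -1.94 ± 0.65 on the log2(FPKM + 1) scale (SE, limma adjusted p = 0.0213). All log2 differences below are on this scale, which understates changes of genes of low expression. The deleted exons are not stated in the sources used here. In the group labelled Btg4-/-, Btg4 was at 1302 FPKM (mean of 2 libraries) against 1035 FPKM in WT MII eggs, so that label has no check in the level of its gene, and the part of the gene that was deleted is not given.

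The MII libraries carried the markers of eggs. All 8 oocyte markers (Zp1, Zp2, Zp3, Gdf9, Bmp15, Mos, Nlrp5 and Ooep) were present, with a summed level of 1078 to 1412 FPKM in WT and 3325 to 4050 FPKM in Cnot6l-/-. Markers of other cells were low in both groups, and their summed FPKM was higher in Cnot6l-/-, as was that of all genes. The 26 cumulus and granulosa markers summed to 6.08 to 6.31 FPKM in WT and 9.42 to 14.9 FPKM in Cnot6l-/-. Of the 26, 3 reached 1 FPKM in a library, and Foxl2, Ptx3 and Ereg were listed at 0. The highest was Cyp19a1, at 4.64 and 4.16 FPKM in WT and at 11.3 and 6.66 FPKM in Cnot6l-/-. Cyp19a1 and Nr5a2 were called higher as deposited (limma adjusted p = 0.0195 and 0.0401), and neither was called after scaling. The 15 sperm markers summed to 5.84 to 8.40 FPKM in WT and 25.3 to 26.1 FPKM in Cnot6l-/-, with Ldhc the highest and Tnp1, Tnp2 and Acr among the 7 listed at 0. The 15 blood and immune markers summed to 0.58 to 0.99 FPKM in WT and 1.5 to 1.79 FPKM in Cnot6l-/-, with 8 listed at 0, among them Lyz2 and Hba-a1. As a percent of the library sum, cumulus and granulosa markers overlapped (0.00641% and 0.00612% in WT, 0.00747% and 0.0052% in Cnot6l-/-), and so did blood and immune markers. Sperm markers did not (0.00616% and 0.00814% in WT, 0.0127% and 0.0144% in Cnot6l-/-). At GV they already summed to 50.2 and 53.1 FPKM in WT and to 79.3 and 105.6 FPKM in Cnot6l-/-. The part of all these markers in the results was not tested.

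Far more transcripts were higher in Cnot6l-/- MII eggs than lower. Of the 10884 genes tested, 4818 (44.3%) were called higher and 73 (0.671%) lower at a limma adjusted p under 0.05, and 5630 had an unadjusted p under 0.05. Without library 1 of WT 45 genes were lower, and without library 1 of Cnot6l-/- 46 were. The median difference over all genes tested was 0.56. Among the calls, a log2 difference of 1 or more was seen for 3189 higher and 41 lower genes, of 2 or more for 1146 and 13, and of 4 or more for 87 and 5. In 7821 genes (71.9%) both Cnot6l-/- libraries lay above both WT libraries, and in 307 (2.82%) both lay below. Over the 7713 genes chosen by the MII level, 4110 were called higher and 58 lower, which the choice itself favours.

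The summed FPKM of all 23235 genes was 98985 ± 5931 in WT and 190240 ± 13038 in Cnot6l-/- (SD, n = 2), a ratio of 1.92. Both Cnot6l-/- libraries lay above both WT libraries, and the exact two-sided permutation p was 0.333, the smallest that 2 libraries against 2 allow. Without the 100 genes of highest mean the ratio was 2.29. In WT, 5039 and 4971 genes reached 1 FPKM at MII, and in Cnot6l-/- 7817 and 7279 did. Less RNA per egg and fewer eggs in a library cannot be told apart in these values, and the sources used here do not state the scaling of FPKM across libraries. When each library was scaled by the median ratio over genes present in all libraries, the sums differed by a ratio of 1.08. On that scale 3555 genes (32.7%) were called higher and 852 (7.83%) lower, with a median difference of 0.25. Of the 4818 genes called higher as deposited, 3454 were called higher on that scale too and 0 lower, and all 73 lower genes were called lower again. The share of lower calls therefore depends on the scale. Counts and medians after scaling stand beside the main ones below.

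**Figure D1:**
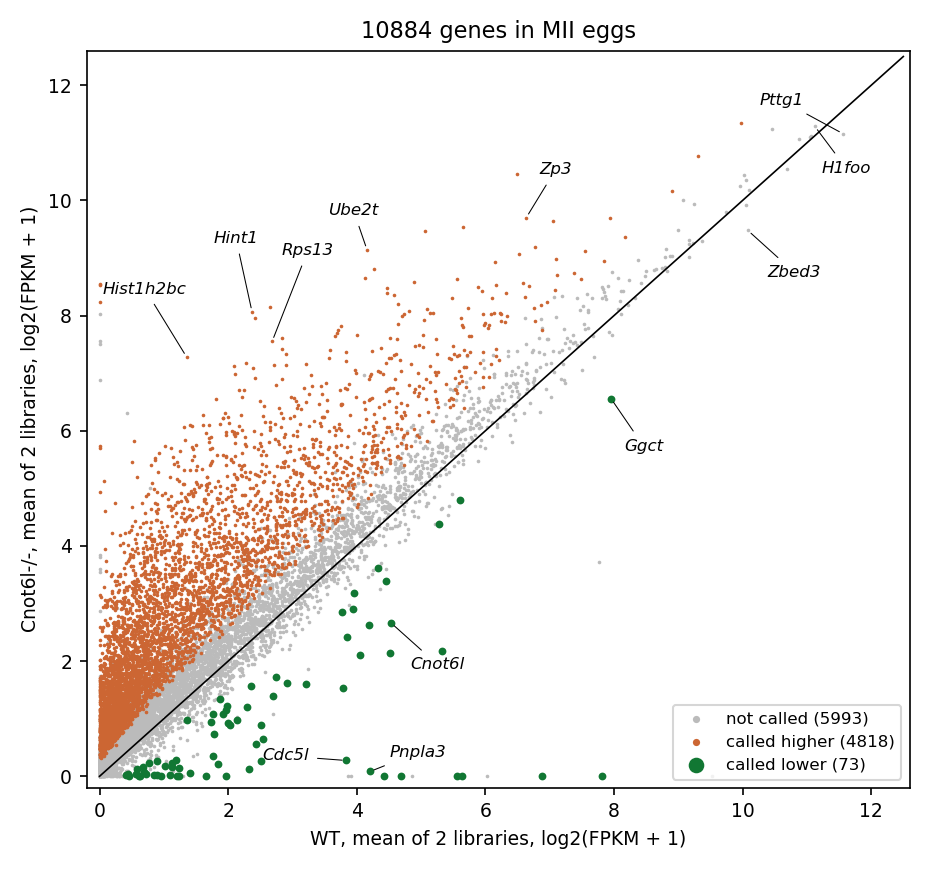
Mean level of 10884 genes in WT (x axis) and Cnot6l-/- (y axis) MII eggs, each on the log2(FPKM + 1) scale over 2 libraries; the diagonal marks equal levels. The 4818 genes called higher fill the area above the diagonal, most of all at low WT levels, while abundant transcripts such as Pttg1 and H1foo lie near it and 73 genes, with Cnot6l among them, lie below.

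The comparison with the GV stage shows how much of each transcript was left. In WT, the 4025 genes of at least 10 FPKM at GV in both genotypes kept a median of 11.2% of their GV level at MII (interquartile range 3.18% to 33.5%). In Cnot6l-/- they kept 36.3% (20.5% to 58.1%) of the GV level of the same genotype. The share left was larger in Cnot6l-/- for 3943 of the 4025 genes. In WT 1926 of them (47.9%) were below 10% of their GV level, and in Cnot6l-/- 85 (2.11%) were. These shares rest on group means of 2 libraries at each stage.

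Genes chosen on the GV level, which the MII libraries did not set, were called at higher rates the more abundant they were. Of the 4405 genes with at least 10 FPKM in WT GV oocytes, 2586 (58.7%) were called higher at MII and 33 lower, with a median difference of 1.17. Of the 965 genes with at least 100 FPKM, 635 (65.8%) were called higher and 3 lower, with a median difference of 1.78. Both shares stand above the 44.3% of all genes tested.

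The difference at MII was for the most part not there at GV. At GV, 660 genes (6.06%) were called higher and 329 (3.02%) lower in Cnot6l-/-. Of the 4818 genes higher at MII, 566 were already higher at GV and 32 were lower there. The difference at MII less that at GV was tested as an interaction: it was called positive for 2619 genes (24.1%) and negative for 78 (0.717%). Of the 4818 genes higher at MII, 2336 were called in this interaction with the same sign. The same MII libraries enter both tests, which favours this overlap. Of the lower genes, 55 of the 73 were already called lower at GV, and in the interaction 6 were called with the same sign and 13 with the opposite sign. Without WT MII library 2 the count of negative interactions was 49, and after scaling 1467 interactions were positive.

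The fall between GV and MI in WT, measured in libraries other than the MII ones, sorted the genes. In that comparison 7090 genes (65.1%) were called lower at MI and 82 (0.753%) higher, and after scaling 3230 were lower and 1520 higher. Of 5082 of the fallen genes with a log2 change of -1 or lower, 3292 (64.8%) were higher in Cnot6l-/- at MII and 22 lower, with a median difference of 1.04. Of 1408 genes that were level over that time (a change under 0.25), 318 (22.6%) were higher and 17 lower, with a median of 0.26. This class had no floor on expression and holds genes at 0 FPKM in WT at GV and MI, such as Cd52 and Lyz2. Such genes cannot be classed as fallen, so the classes can also differ in level. Of the 82 genes that rose, 9 (11%) were higher and 3 lower, with a median of 0.09. Among the 2176 genes with a log2 change of -2 or lower, 82.4% were higher at MII. Scaling also changed which genes fell, stayed level or rose, so its classes are other sets of genes. They held 2052, 2980 and 1520 genes, of which 69.9%, 24% and 9.34% were higher at MII, and 24.7% of the 1520 that rose were lower.

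By the rule for naming genes, the 14 highest were Hist1h2bc, Hint1, Calm2, Cox7c, Paip2, Ndufb4, Atpbd4, Ube2t, Cd9, Speer5-ps1, Timm9, Rps13, Ndufc1 and Cox17, with log2 differences from 5.91 to 4.69. All 14 fell from GV to MI in WT. In WT they kept 0.517% to 8.76% of their GV level at MII, and in Cnot6l-/- 16.5% to 70.2%. For 13 of the 14 the difference was larger than that at GV by the interaction. The exception was Atpbd4, which was at 5.08 FPKM in WT and 86.9 FPKM in Cnot6l-/- already at GV. The 14 were chosen on their MII difference, and the MII values also enter the interaction and the shares left. That choice favoured both outcomes.

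Hint1, a nucleotide-hydrolysing enzyme of the histidine triad family, was at 5.48 and 2.87 FPKM in WT and at 257 and 278 FPKM in Cnot6l-/- MII eggs. The groups lay far apart, with both knockout libraries close together. Its log2 difference was 5.74 ± 0.37 (SE, limma adjusted p = 1.7e-08), against 0.39 at GV, where the call was not made.

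Cd9, the egg surface tetraspanin needed for fusion with sperm, was at 9.81 and 2.49 FPKM in WT and at 217 and 174 FPKM in Cnot6l-/- MII eggs. Again no library of 1 group reached the other. The difference was 4.99 ± 0.48 (SE, limma adjusted p = 5.3e-07), and 2.03% of the GV level was left in WT against 49.1% in Cnot6l-/-.

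Ube2t, a ubiquitin-conjugating enzyme of the Fanconi anaemia pathway, stood at 19.2 and 14.6 FPKM in WT and at 607 and 523 FPKM in Cnot6l-/-. It was the most abundant of the 14 in the knockout libraries, and its groups did not overlap. The difference was 4.99 ± 0.56 (SE, limma adjusted p = 2.2e-06).

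Hist1h2bc encodes a histone H2B whose mRNA, unlike that of most replication-dependent histones, can be polyadenylated. It was at 1.38 and 1.73 FPKM in WT and at 129 and 181 FPKM in Cnot6l-/-, a difference of 5.91 ± 0.44 (SE, limma adjusted p = 4.8e-08). Histone genes have near-identical copies, and reads could be split among them, as could those of Calm2, of Speer5-ps1 (a pseudogene of a multigene family) and of ribosomal protein genes with their many processed pseudogenes.

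The respiratory chain and the ribosomes gave the highest shares of calls among the 20 gene lists described. Of 78 nuclear-encoded genes of oxidative phosphorylation, 72 were called higher and 0 lower, with a median difference of 2.88 against 0.56 over all genes tested; after scaling 62 were higher and 1 lower. Cox7c, a small subunit of cytochrome c oxidase, was at 6.17 and 2.49 FPKM in WT and at 160 and 336 FPKM in Cnot6l-/-, with no overlap and a difference of 5.54 ± 0.50 (SE, limma adjusted p = 2.7e-07). Ndufb4, a subunit of complex I, was at 3.68 and 2.87 FPKM in WT and at 136 and 142 FPKM in Cnot6l-/-. Not every member followed: Cox8a, another cytochrome c oxidase subunit, was at 171 and 377 FPKM in WT and at 176 and 344 FPKM in Cnot6l-/-, and Sdha, the flavoprotein subunit of complex II, differed by 0.10 ± 0.35 (SE, limma adjusted p = 0.84), which turned to -0.66 after scaling and was not called there.

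All 82 cytosolic ribosomal protein genes listed were tested, and 76 were called higher and 0 lower, with a median difference of 2.99; after scaling 63 were higher and 0 lower. They kept a median of 1.76% of their GV level at MII in WT and 18.5% in Cnot6l-/-. Rps13 was at 6.13 and 4.73 FPKM in WT and at 149 and 225 FPKM in Cnot6l-/- MII eggs. Rpl35 was at 19 and 14 FPKM in WT and at 299 and 507 FPKM in Cnot6l-/-. In both genes every knockout library lay above every WT library. The lowest differences of the list were those of Rps15a at 0.13 (limma adjusted p = 0.78) and of Rps27l at 0.17 (limma adjusted p = 0.81); both signs turned after scaling, to -0.58 and -0.66, without a call. Rps27l kept 370 and 430 FPKM in WT and 467 and 432 FPKM in Cnot6l-/-.

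Mitochondrial ribosomal proteins, which translate the mitochondrial genome, gave 68 of 76 higher and 0 lower, with a median of 1.77; after scaling 51 were higher and 0 lower. The 2 highest were Mrpl33 at 4.17 and Mrps31 at 4.09. Mrps31 was at 0.62 and 0.53 FPKM in WT and at 23.7 and 28.3 FPKM in Cnot6l-/-. The WT values lie below the 1 FPKM threshold, so this gene entered the set through the knockout libraries alone. Other genes named in the text did so too. Atpbd4, Psmb1, Figla, Cdk1, Ythdf1, Arg2, Gins4, Ddit3 and Ldhc each had a WT MII mean under 1 FPKM.

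Protein turnover and protein folding followed. Of 40 proteasome genes, 34 were higher and 0 lower, with a median of 1.99; after scaling 29 were higher and 2 lower. Psmb1, a subunit of the core particle, was at 0.94 and 0.81 FPKM in WT and at 41.2 and 35.1 FPKM in Cnot6l-/-, a difference of 4.38 ± 0.33 (SE, limma adjusted p = 4.8e-08), and Psmb7, which carries the trypsin-like site, differed by 4.50. Psmd1 of the regulatory particle differed by 0.01 (limma adjusted p = 0.99), and its sign turned to -0.80 after scaling, where it was called lower. Of 35 chaperone genes, 25 were higher and 0 lower, with a median of 1.62 (20 higher and 2 lower after scaling). Dnaja1, a co-chaperone of HSP70, was at 5.18 and 1.59 FPKM in WT and at 88.2 and 35.0 FPKM in Cnot6l-/-, while Hsp90ab1 was at 41.4 and 56.8 FPKM in WT and at 43.8 and 44.5 FPKM in Cnot6l-/-.

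Translation factors split in the same way. Of 49, 29 (59.2%, beside 44.3% of all genes tested) were higher and 0 lower, with a median of 1.15 (21 higher and 2 lower after scaling). Eif1ax, which helps to select the start codon, was at 3.66 and 2.09 FPKM in WT and at 70.2 and 86.8 FPKM in Cnot6l-/-, and Eif3g, a subunit of the eIF3 complex, differed by 3.99. Another eIF3 subunit, Eif3i, was at 50.1 and 69.9 FPKM in WT and at 52.1 and 60.7 FPKM in Cnot6l-/-, so the groups overlapped. Eif3i was not called as deposited and was called lower after scaling (-0.89, limma adjusted p = 0.0282). Eif4a2, a helicase of the cap-binding complex, differed by -0.05 (limma adjusted p = 0.96).

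**Figure D2:**
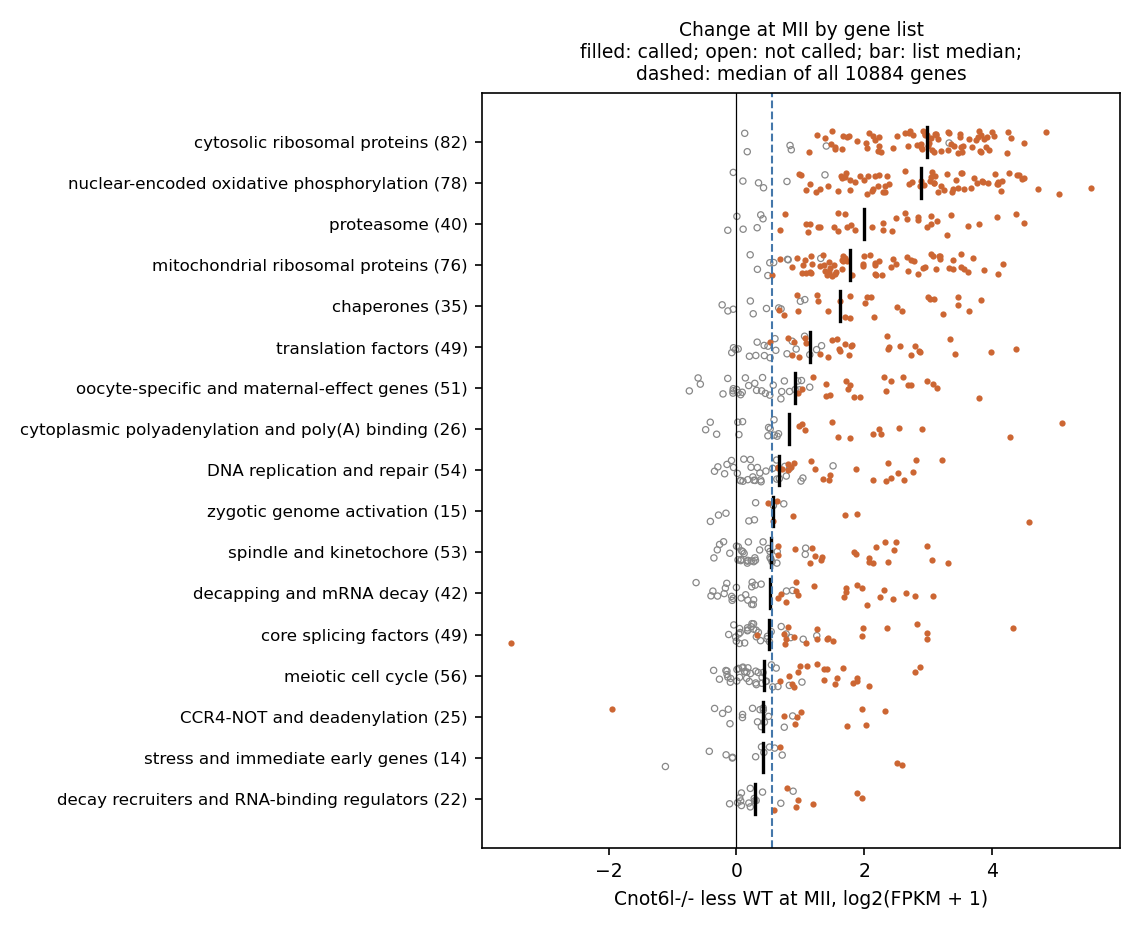
Difference between Cnot6l-/- and WT MII eggs on the log2(FPKM + 1) scale (x axis) for each gene of 17 lists (y axis, number tested in brackets), with filled points called, open points not called, bars at list medians and a dashed line at the median of all 10884 genes, 0.56. The cytosolic ribosomal protein, oxidative phosphorylation and proteasome lists have medians from 2.99 to 1.99, and the decay recruiters the lowest, 0.30.

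Of 30 genes listed for CCR4-NOT and deadenylation, 25 were tested, and 8 (32%, beside 44.3% of all genes tested) were called higher and 1, Cnot6l, lower. The list median was 0.42, and it turned to -0.37 after scaling, where 6 were higher and 5 lower. Cnot6, the paralog of Cnot6l, was at 2.74 and 3.26 FPKM in WT and at 3.49 and 1.63 FPKM in Cnot6l-/- MII eggs, with overlapping groups and a difference of -0.22 ± 0.44 (SE, limma adjusted p = 0.73). The other catalytic subunits, Cnot7 and Cnot8, differed by 0.10 and 0.44 with limma adjusted p = 0.92 and 0.19, and both signs turned after scaling. Btg4 was at 957 and 1114 FPKM in WT and at 1431 and 1336 FPKM in Cnot6l-/-, a difference of 0.42 ± 0.32 (SE, limma adjusted p = 0.3) that turned to -0.41 after scaling. Tob2, a relative of Btg4 that also binds the complex, was at 1.42 and 1.77 FPKM in WT and at 10.1 and 9.04 FPKM in Cnot6l-/-, and it was called higher by 2.03 (limma adjusted p = 2.8e-05).

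Among 22 tested decay recruiters and RNA-binding regulators (of 39 listed), 7 (31.8%) were higher and 0 lower, with a median of 0.30 that turned to -0.07 after scaling. Ythdf2, a reader of m6A that recruits CCR4-NOT, was at 2.93 and 2.23 FPKM in WT and at 16.8 and 9.76 FPKM in Cnot6l-/-. Its relative Ythdf1 was at 0.47 and 0.38 FPKM in WT and at 4.80 and 3.80 FPKM in Cnot6l-/-. Both were called higher, with differences of 1.96 and 1.89. Decapping and decay genes gave 19 of 42 (45.2%) higher and 0 lower, with a median of 0.52, near that of all genes tested, and 13 higher and 8 lower after scaling. Lsm4 and Lsm5, subunits of the Lsm rings that bind shortened tails and U6 RNA, differed by 2.79 and 3.08. Dcp1a, the decapping cofactor, was at 30.3 and 35.3 FPKM in WT and at 28.6 and 21.1 FPKM in Cnot6l-/-; its difference of -0.40 was not called as deposited and was called lower after scaling.

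Among genes of cytoplasmic polyadenylation and poly(A) binding, 13 of 26 (50%, beside 44.3% of all genes tested) were higher and 0 lower. The median was 0.82, and 10 were higher and 4 lower after scaling. Paip2, an inhibitor of poly(A)-binding protein, was at 6.39 and 1.34 FPKM in WT and at 175 and 113 FPKM in Cnot6l-/-. Zar1l, a maternal RNA-binding protein, was at 1.63 and 1.79 FPKM in WT and at 53.4 and 50.1 FPKM in Cnot6l-/-. Cpeb1, which binds the cytoplasmic polyadenylation element, was at 8.86 and 8.18 FPKM in WT and at 47.6 and 34.9 FPKM in Cnot6l-/-; it and the other genes named outside the naming rule were chosen after their values were seen.

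Of 51 oocyte-specific and maternal-effect genes tested, 21 (41.2%, beside 44.3% of all genes tested) were higher and 0 lower, with a median of 0.92 (16 higher and 9 lower after scaling). Zp3, a glycoprotein of the zona pellucida, was at 129 and 68.2 FPKM in WT and at 779 and 887 FPKM in Cnot6l-/- MII eggs. Its groups did not overlap, and the difference was 3.13 ± 0.37 (SE, limma adjusted p = 3.6e-06). Figla, the transcription factor that drives zona genes, was at 0.48 and 0.32 FPKM in WT and at 17.6 and 19.3 FPKM in Cnot6l-/-. Zbed3, a component of the subcortical maternal complex, was at 867 and 1301 FPKM in WT and at 582 and 843 FPKM in Cnot6l-/-; its difference of -0.60 ± 0.41 (SE) was not called as deposited (limma adjusted p = 0.25) and was called lower after scaling.

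Of 56 meiotic cell cycle genes, 20 (35.7%) were higher and 0 lower, with a median of 0.44 that turned to -0.19 after scaling, where 13 were higher and 12 lower. Cdk1, the kinase of M phase, was at 0.10 and 0.04 FPKM in WT and at 8.42 and 4.84 FPKM in Cnot6l-/-. Mapk3, an ERK kinase that acts downstream of Mos, was at 10.8 and 6.34 FPKM in WT and at 68.3 and 66.0 FPKM in Cnot6l-/-. Pttg1, which encodes securin, the inhibitor of separase, was at 2225 and 3821 FPKM in WT and at 2091 and 2482 FPKM in Cnot6l-/-, so its groups overlapped, and it kept 70.1% of its GV level in WT and 74.2% in Cnot6l-/-. Cks1b, a small binding partner of CDK1, was at 194 and 303 FPKM in WT and at 195 and 209 FPKM in Cnot6l-/-. Neither Pttg1 nor Cks1b was called as deposited, and both were called lower after scaling.

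Spindle genes gave 21 of 53 (39.6%, beside 44.3% of all genes tested) higher and 0 lower, with a median of 0.54 that turned to -0.02 after scaling. The beta-tubulin Tubb4b was at 7.53 and 7.32 FPKM in WT and at 91.1 and 74.6 FPKM in Cnot6l-/-. In contrast, Kif23, a kinesin of the central spindle, was at 59.8 and 65.7 FPKM in WT and at 58.3 and 44.2 FPKM in Cnot6l-/-. The Kif23 difference of -0.30 was not called as deposited and was called lower after scaling. Splicing factors gave 19 of 49 (38.8%) higher and 1 lower, with a median of 0.52 that turned to -0.04 after scaling, where 11 were higher and 7 lower; Snrpd2, a core snRNP protein, differed by 4.33, and the lower gene was Cdc5l. Replication and repair genes gave 22 of 54 (40.7%) higher and 0 lower (14 and 9 after scaling), with a median of 0.66; Gins2 and Gins4, subunits of the GINS complex of the replicative helicase, differed by 3.21 and 2.80. Of 15 zygotic genome activation genes tested, 7 (46.7%) were higher and 0 lower (6 and 3 after scaling), led by Arg2, a mitochondrial arginase, at 4.57. Of 14 stress genes 3 (21.4%) were higher and 0 lower, Ddit3 and Atf4 of the integrated stress response among them at 2.60 and 2.51; the list median of 0.41 turned to -0.07 after scaling.

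**Figure D3:**
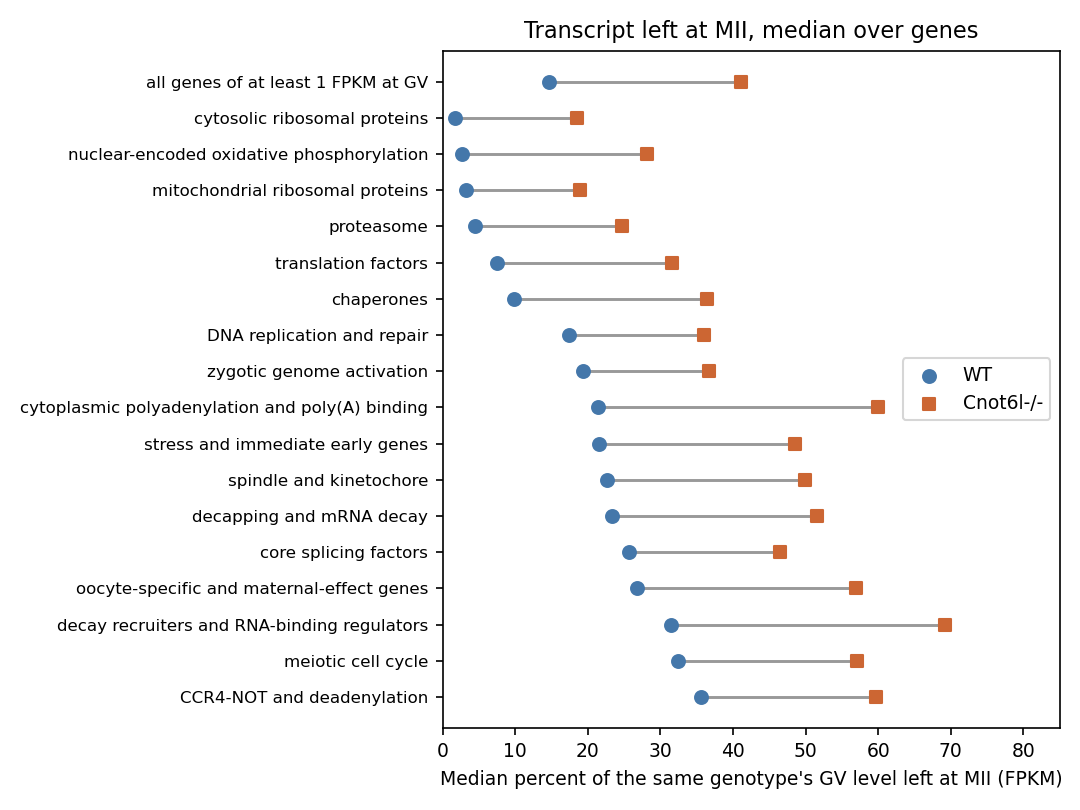
Median percent of the GV level left at MII in WT (circles) and Cnot6l-/- (squares), each against the GV libraries of the same genotype, for genes of at least 1 FPKM at GV in 17 lists and over all such genes. The circles run from 1.76% for cytosolic ribosomal proteins to 35.5% for CCR4-NOT and deadenylation, and each square lies to the right of its circle.

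Among the 73 lower genes, 23 had at least 10 FPKM in WT MII eggs. In 12 of the 73 both Cnot6l-/- libraries were listed at 0, among them small RNA genes such as Snord49b and Mir3096b. The 14 lowest by the naming rule were Pnpla3, Cdc5l, Fam54a, Tceal8, H2-Aa, Cnot6l, Alyref2, Itgb1bp1, Tmco6, Ggct, Kctd5, Ctnna1, Stk35 and Ctbp2, with log2 differences from -4.09 to -0.88. Of these, 12 were already called lower at GV, and for none of the 14 was the difference at MII called lower still by the interaction with GV on the deposited scale. After scaling that interaction was called lower for 3 of the 14, Itgb1bp1, Kctd5 and Ctnna1. The 2 not called at GV were Itgb1bp1 and Stk35, at -0.11 and -0.93 there.

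Pnpla3, a lipid-droplet hydrolase, was at 21.4 and 13.6 FPKM in WT and at 0.07 and 0.05 FPKM in Cnot6l-/- MII eggs; at GV its means were 69.4 and 0.16 FPKM. Cdc5l, a core factor of the spliceosome, was at 9.76 and 16.8 FPKM in WT and at 0.31 and 0.11 FPKM in Cnot6l-/-, with GV means of 42.2 and 0.99 FPKM. Both were near 0 in the knockout libraries at either stage and did not overlap with WT. Ggct, a glutathione-cycle enzyme, was the most abundant of the 14, at 241 and 254 FPKM in WT and at 101 and 85.1 FPKM in Cnot6l-/-, a difference of -1.40 ± 0.43 (SE, limma adjusted p = 0.0133). Its GV means were 623 and 200 FPKM, so the shares left at MII, 39.7% in WT and 46.6% in Cnot6l-/-, were close. Itgb1bp1, a regulator of integrin signalling, was at 22.6 and 11.9 FPKM in WT and at 7.46 and 2.97 FPKM in Cnot6l-/-, and it kept 15.7% of its GV level in Cnot6l-/- against 46.7% in WT; the difference of those changes was not called as deposited (interaction -1.47 ± 0.81, SE, limma adjusted p = 0.2) and was called after scaling (-2.37, limma adjusted p = 0.0136).

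**Figure D4:**
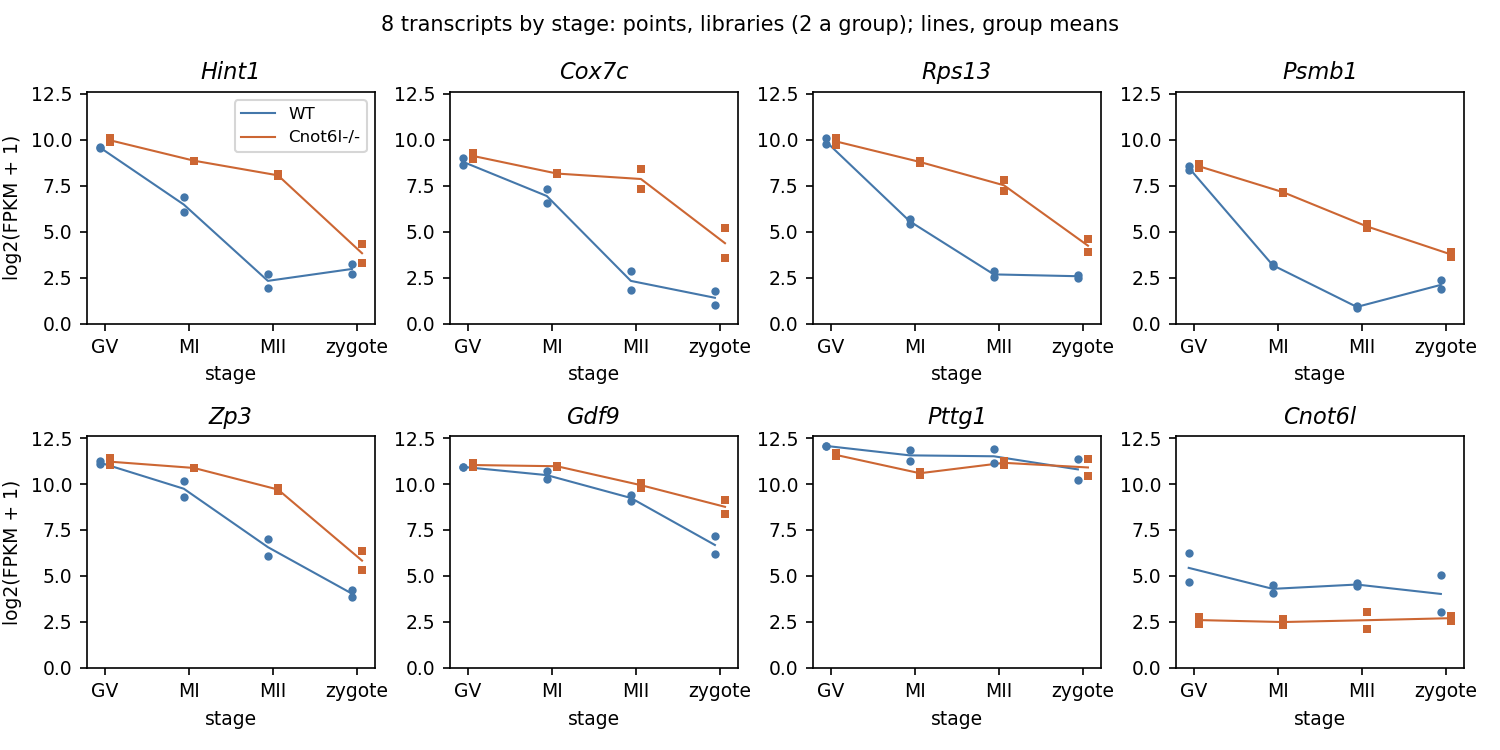
Level of 8 transcripts on the log2(FPKM + 1) scale (y axis) at 4 stages (x axis) in WT (blue circles) and Cnot6l-/- (orange squares), with each library as a point and group means joined by lines. Hint1, Cox7c, Rps13 and Psmb1 fall from GV to MII in WT and lie far higher in Cnot6l-/- at MII, Zp3 less so. The genotypes lie closer at MII for Gdf9 and Pttg1. At MI the Pttg1 means are 3089 FPKM in WT and 1540 FPKM in Cnot6l-/-. Cnot6l is lower in Cnot6l-/- from GV on.

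Against MI, the difference between genotypes at MII was smaller for more genes than it was larger. At MI 6565 genes (60.3%) were called higher in Cnot6l-/- and 141 (1.3%) lower, and after scaling 3887 and 1103 were. The difference at MII less that at MI was called positive for 266 genes (2.44%) and negative for 1328 (12.2%). This balance turned with the scale, the pseudocount and the filter: after scaling 558 were positive and 463 negative, with a pseudocount of 0.1 the counts were 261 and 277, and among genes of at least 5 FPKM at MII they were 167 and 111. With single libraries left out the counts were 113 to 213 positive and 653 to 1127 negative. Each single library of WT and Cnot6l-/- at MI and MII, except Cnot6l-/- MII library 1, moved a count by over 1.5 times when left out. The oxidative phosphorylation list had 17 positive and 1 negative as deposited, and the cytosolic ribosomal proteins had 10 positive and 5 negative. Cox7c, for one, was at 126 FPKM in WT and 286 FPKM in Cnot6l-/- at MI (means of 2 libraries), while at MII WT had fallen to the values above. In zygotes 871 genes (8%) were higher and 45 (0.413%) lower, and 742 of the 4818 genes higher at MII were among those called higher there. After scaling 795 genes were higher and 782 lower in zygotes, and the median difference of 0.18 turned to -0.07.

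The eggs labelled Btg4-/- give a second MII comparison. Against the same WT libraries, 3075 genes (28.3%) were higher and 37 (0.34%) lower in that group, and after scaling 2157 were higher and 614 lower. Since the WT libraries are shared, the knockout groups were compared directly: 1199 genes (11%) were higher and 193 (1.77%) lower in Cnot6l-/- than in the group labelled Btg4-/-. Of the 82 cytosolic ribosomal protein genes 39 were higher and 2 lower, with a median of 1.04, of 78 oxidative phosphorylation genes 23 and 2, with a median of 0.66, and of 76 mitochondrial ribosomal protein genes 24 and 3, with a median of 0.68. The other 17 lists had medians from -0.06 to 0.43, with 0.06 for oocyte-specific genes and 0.07 for the meiotic cell cycle, which turned to -0.05 and -0.02 after scaling. Without library 2 of the group labelled Btg4-/- the higher count was 570, and without library 1 of Cnot6l-/- it was 594; the lower count was 72 without library 1 of the group labelled Btg4-/-, 95 without library 1 of Cnot6l-/- and 105 without its library 2.

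Some of the genes named above differed between the knockout groups and others did not. Rps13 had a mean of 54.3 FPKM in the group labelled Btg4-/- and was higher in Cnot6l-/- by 1.74 (limma adjusted p = 0.0018), and Snrpd2, at 9.71 FPKM there, was higher by 2.69 (limma adjusted p = 2.4e-05). Calm2, at 341 FPKM in that group, differed by -0.18 (limma adjusted p = 0.95), and Cox17, a copper chaperone of cytochrome c oxidase, was lower in Cnot6l-/- by -1.16 (limma adjusted p = 0.0325). Pnpla3 and Cdc5l were at 35.6 and 13.7 FPKM in the group labelled Btg4-/-, so their loss was not shared with it.

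Transcripts called higher tended to be short. Lengths and 3′ untranslated regions (UTRs) were read from the gencode vM1 annotation on mm9, which named 10239 of the 10884 genes tested. A gene's length is that of its transcript with the longest coding sequence, and its 3′ UTR comes from the longest-coding transcript among those with a 3′ UTR of at least 50 bases, which can be another transcript. Among genes of at least 10 FPKM in WT GV oocytes, 76.6% of 595 with an mRNA of up to 1000 bases were higher at MII, 69.1% of 1472 over 1000 and up to 2000 bases, 56.4% of 1009 up to 3000, 41% of 898 up to 5000 and 31% of 271 over 5000. The medians fell from 2.00 to 0.51 over these classes, and the last turned to -0.20 after scaling. In WT the median share of the GV level left at MII rose with length from 4.54% to 34.6%, and in Cnot6l-/- from 28.5% to 64.7%. Short mRNAs were also more abundant at GV, with a median of 103 FPKM against 17.1 FPKM for the longest. Within the genes of 30 to 100 FPKM at GV, the shares called higher were 80.1%, 72.7%, 55.8%, 39.4% and 40.4%.

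**Figure D5:**
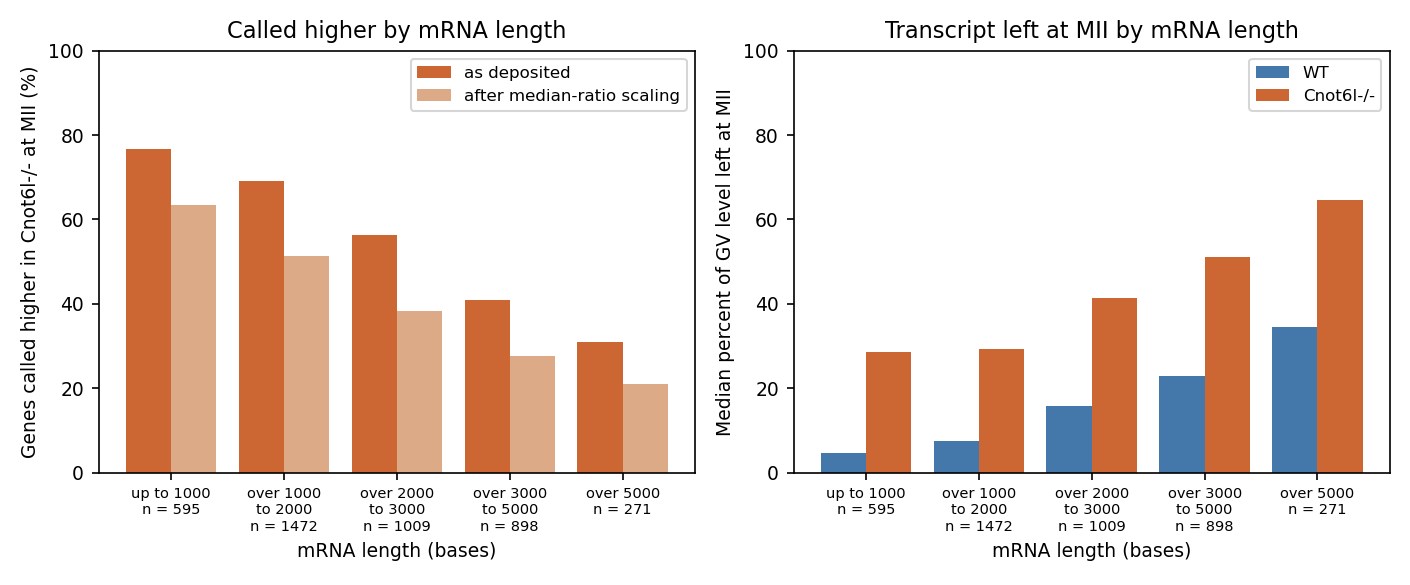
Left, percent of genes called higher in Cnot6l-/- MII eggs, as deposited and after median-ratio scaling, and right, median percent of the GV level left at MII in WT and Cnot6l-/-, both by mRNA length in bases for genes of at least 10 FPKM in WT GV oocytes. The share called higher falls from 76.6% to 31% with length, and the share left rises in both genotypes.

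The 3′ UTR carries elements that control tail length in the oocyte. The motif TTTTAT is a core form of the cytoplasmic polyadenylation element, TATTTAT a core AU-rich element and TGTANATA the Pumilio element; each was searched on the sense strand only, since the RNA is single-stranded, in 3′ UTRs of at least 50 bases and for genes of at least 5 FPKM in either MII group. Neighbouring matches of different motifs can share bases. TTTTAT was in 40.3% of 2018 genes called higher (95% Wilson interval 38.2% to 42.4%), in 66.8% of 1641 genes not called (64.5% to 69%) and in 52.2% of all 3679 such genes. TATTTAT was in 16.6% and 29% of the same classes, against 22.1% of all, and TGTANATA in 16.5% and 27.2%, against 21.2% of all. Intervals cover counting error only, and genes are not independent replicates. The filter on the MII level helps to fix these classes, since a gene of low WT level passed it only if it was high in Cnot6l-/-. Among genes of at least 10 FPKM in WT GV oocytes, a choice made after the first shares were seen, TTTTAT was in 37.7% of 2416 genes called higher, in 64.6% of 1699 not called and in 48.9% of all 4145. The 3′ UTRs of genes called higher were shorter, with a median of 506 bases against 906. Within UTRs of 50 to 500 bases TTTTAT was in 19.5% of the higher and 39.6% of the uncalled genes, and within those over 2000 bases in 87.3% and 93.5%.

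In windows of equal size, the last 100 bases of the 3′ UTR, TTTTAT was in 12.1% of 1870 genes called higher and in 25.6% of 1593 genes not called, against 18.4% of all 3481. This window was chosen after the first shares were seen. With the filter on the GV level instead, the shares were 10.9% of 2242 and 24.6% of 1648, against 16.7% of all 3916. Among genes that fell from GV to MI in WT, with the MII filter, they were 11.1% of 1447 and 23.3% of 589. Among genes that were level over that time they were 21.6% of 74 and 25.8% of 248. These windows also differed in base composition, with a median of 64% A and T in the higher and 68% in the uncalled genes. At 65% A and T or more the shares were 19.4% and 31.5%, and from 55% to under 65% they were 6.74% and 16.4%. After scaling, the motif was in 10.9% of the genes called higher and in 28.9% of those called lower.

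The 5 abundant genes below were not called at MII and hold TTTTAT (in capitals) in the last 100 bases of the 3′ UTR. They are the 5 of highest WT MII level with a gene name, a match there and enough bases on either side, and each window has 30 bases, 5′ to 3′ on the sense strand, written as DNA from mm9.
H1foo, chr6:115900175-115900204, plus strand: cgattctgaagcTTTTATtgtctaataagc
Btg4, chr9:50927902-50927931, plus strand: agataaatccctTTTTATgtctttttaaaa
Tcl1, chr12:106455007-106455036, minus strand: gaatgtgtgggaTTTTATgtggttctattt
Gdf9, chr11:53251356-53251385, plus strand: agagtgctgtggTTTTATgtgacggaagaa
Cks2, chr13:51745967-51745996, plus strand: tataaatgcctgTTTTATtttacctgtttt

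These transcripts stayed abundant in both genotypes. H1foo, the oocyte linker histone, was at 1672 and 2791 FPKM in WT and at 2127 and 2863 FPKM in Cnot6l-/- MII eggs. Tcl1, a co-activator of AKT kinases, was at 971 and 1017 FPKM in WT and at 1311 and 1123 FPKM in Cnot6l-/-. Gdf9, a growth factor that the oocyte secretes to the cumulus cells, was at 668 and 548 FPKM in WT and at 1082 and 888 FPKM in Cnot6l-/-; its groups did not overlap, and its difference of 0.70 ± 0.32 (SE) was not called (limma adjusted p = 0.087). Cks2, a CDK-binding protein needed in meiosis, was at 526 and 627 FPKM in WT and at 540 and 499 FPKM in Cnot6l-/-. After scaling Cks2 was called lower. The differences of H1foo, Tcl1 and Gdf9, 0.19, 0.29 and 0.70 as deposited, turned to -0.64, -0.54 and -0.13, without a call.

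Of the 14 genes with the highest differences at MII, 13 had a 3′ UTR of at least 100 bases. Of these, 5 held TTTTAT anywhere in it (Calm2, Atpbd4, Ube2t, Ndufc1 and Cox17). Only Ube2t among them held it in the last 100 bases. Its site is shown with that of Eif1ax, as matches in genes that were called higher. The Eif1ax site is from a gencode 3′ UTR of 4515 bases and lies past 155823631, the end of the deposited gene.
Ube2t, chr1:136870658-136870687, plus strand: aaggatagtttgTTTTATttatcttgtaca
Eif1ax, chrX:155827819-155827848, plus strand: attcagtggatgTTTTATgctgcacaaata
A match describes these letters in the window and not a site in use, and genes were called higher in Cnot6l-/- with and without it.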

How the data were processed

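RNA-seq libraries (Smart-Seq2, Tn5 transposase, per the labels' protocols) were compared for Cnot6l-/- and WT MII eggs, with GV, MI, zygote and Btg4-/- groups as references. Per the submitters' processing notes, the authors used CASAVA 1.8, TopHat2 2.0.11, Bowtie2 2.1.0 and Cufflinks 2.2.1 and the build mm9. The deposited values are FPKM per gene and library, from the authors' table of all 24 libraries, and single-library tables were left out. Read depth and the scaling of FPKM are not given in the sources used here. Precision was therefore taken from the spread between libraries of a group, pooled for each gene over the 12 groups and moderated by limma. The MI columns carry other numbers than their titles and were assigned to groups only.

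log2(FPKM + 1) of 10884 genes was modelled in R 4.3.3 with limma 3.58.1 (a trend, 1 mean for each of 12 groups, no covariate, 12 residual degrees of freedom), with two-sided moderated tests and Benjamini-Hochberg adjustment over all genes of a contrast. A call needed an adjusted p below 0.05. The fit was tested on simulated data. Tested contrasts were Cnot6l-/- against WT at MII, its interactions with GV and MI, and Cnot6l-/- against Btg4-/- at MII; the other stages and WT over time came from the same fit. Alternatives were a pseudocount of 0.1, no filter, filters of 1 and 5 FPKM at MII, median-ratio scaling, a fit of the 4 MII libraries alone, a block for the library number, a stricter WT fall of 2, motif shares at 1 FPKM and each library left out; a fit without the MI libraries, the window of 100 bases and the motif filter on the GV level were added after seeing the data.

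The text names a subset of the following genes. First come the 14 genes of highest and 14 of lowest difference at MII among eligible calls. Those calls had 10 FPKM or more in the higher group, non-overlapping libraries and a symbol that is no predicted locus. Each list gave its 2 highest and its 2 lowest genes, and Cnot6l, Cnot6, Cnot7, Cnot8 and Btg4 were added. The genes, the 20 lists and the rules were chosen with earlier results of these data known. Python 3.11.15 with pandas 2.3.3, numpy 2.4.6, scipy 1.17.1 and matplotlib 3.10.9 made tables and figures.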

Additional observations from a re-analysis of the deposited data

Results flagged for a closer look

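The difference between Cnot6l-/- and WT changed between stages by a test of the difference itself (limma interaction, adjusted p under 0.05). Against GV, 2619 genes had a more positive difference at MII and 78 a more negative one. Against MI, 266 genes had a more positive difference at MII and 1328 a more negative one, a balance that did not hold after median-ratio scaling (558 and 463), with a pseudocount of 0.1 (261 and 277) or among genes of at least 5 FPKM at MII (167 and 111). Causes were not tested.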

How the results depend on the processing

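Counts moved with the scale, the pseudocount, the filter and single libraries. After median-ratio scaling 852 genes were lower in Cnot6l-/- than in WT at MII, the interaction with GV called 1545 genes (1467 higher), that with MI 1021 (558 higher, 463 lower), and Cnot6l-/- was lower than Btg4-/- for 431; the ratio of summed FPKM was 1.08. As deposited, that ratio was 2.29 without the 100 genes of highest mean. Of the classes by the WT change from GV to MI, scaling, which changes their members, gave 69.9% higher and 1.71% lower for 2052 genes that fell, 6.85% lower for 2980 level genes and 24.7% lower for 1520 genes that rose; as deposited, a fall of at least 2 gave 82.4% higher. Of 82 genes the text names, 8 gained and 0 lost a call with scaling, and 11 changed sign, of which Psmd1 alone was called (-0.80). The others were Btg4 (-0.41), Cnot7 (-0.73), Cnot8 (-0.37), Gdf9 (-0.13), H1foo (-0.64), Mos (-0.18), Rps15a (-0.58), Rps27l (-0.66), Sdha (-0.66) and Tcl1 (-0.54). With genes of at least 5 FPKM at MII only, 2247 were called (2219 higher, 28 lower), since fewer genes were tested. A pseudocount of 0.1 left 13 genes lower in the interaction with GV and 538 called in that with MI (277 lower); no filter gave 177 lower with GV; without the MI libraries 123 were lower than in Btg4-/-. Causes were not tested. At 1 FPKM, TATTTAT was in 18.8% of higher and 32.1% of uncalled genes, TGTANATA in 30.2% of uncalled and TTTTAT in 42.5% of higher genes. At 10 FPKM in WT GV oocytes, TGTANATA was in 14.9% and TTTTAT in 37.7% of higher genes.

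With 1 library left out in turn, a lone library was assumed to vary like the other groups. At MII 3322 to 4700 genes were called, 3276 to 4650 higher and 45 to 50 lower (45 without WT library 1, 46 without Cnot6l-/- library 1). The interaction with GV called 1871 to 3261, 1806 to 3193 higher and 49 to 84 lower (49 without WT MII library 2). That with MI called 770 to 1335, 113 to 213 higher and 653 to 1127 lower, with 8 libraries left out in turn; each of these except Cnot6l-/- MII library 1 moved a count by over 1.5 times. Against Btg4-/-, 689 to 1087 were called, 570 to 982 higher (570 without Btg4-/- library 2, 594 without Cnot6l-/- library 1) and 72 to 155 lower (72 without Btg4-/- library 1, 95 and 105 without Cnot6l-/- library 1 and 2). Named genes whose sign changed, with no call in any of these fits, ranged from -0.59 to 0.056 for Cks1b, -0.60 to 0.17 for Cnot6, -0.70 to 0.89 for Cnot7, -0.62 to 0.52 for Cox8a, -0.31 to 0.16 for Eif3i, -0.62 to 0.52 for Eif4a2, -0.18 to 0.56 for H1foo, -0.36 to 0.091 for Hsp90ab1, -0.38 to 0.40 for Psmd1, -0.75 to 0.034 for Pttg1 and -0.41 to 0.61 for Sdha.

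With the library number as a replicate block and without the MI libraries, 5257 genes were called at MII, 5173 higher and 84 lower, 2984 in the interaction with GV and 1441 against Btg4-/-. Same-numbered libraries deviated together (r = 0.51 for WT with Cnot6l-/- at MII), but the labels do not say that numbers pair samples. A block was not run for the interaction with MI, whose columns and titles carry different numbers. Read depth is unknown, so a value near 0 FPKM is no proof of absence.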
